A study of Mus musculus with 9 samples.

Results

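Genes of macrophages and other myeloid cells were followed in the kidneys of mice with a blocked bile duct. The 40 genes were taken by name, from a list that covers growth factor receptors, surface markers, Fc receptors and their adaptors, lectins, scavenger receptors, lysozymes, the phagocyte oxidase and genes of alternative activation. The list was chosen with earlier results of these data known, so counts over it are descriptions only. Each of the 40 had exactly 1 row with a single gene symbol in the value table, so that none was dropped, out of 22180 genes tested. Kidney RNA from 9 mouse samples was hybridised to whole-transcript arrays in 3 groups of 3. The sham group had a sham operation 3 weeks earlier. In the second group, called CBDL, the common bile duct had been ligated for 3 weeks, which stops bile from leaving the liver. The third group, called norUDCA-fed CBDL, had the same ligation after 5 days of feeding with norUDCA (norursodeoxycholic acid), a side chain-shortened bile acid, and the labels do not say whether feeding continued after surgery. Nothing but the operation and the feeding is stated to differ between groups, and strain, sex and age are not given in the sources used here. There was no sham group with norUDCA.

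Macrophages arise from embryonic precursors or from blood monocytes, and their survival depends on the growth factor receptor CSF1R, which binds CSF1 and IL-34. The transcription factor PU.1, encoded by Spi1, sets up the myeloid programme and binds purine-rich sites, known as PU-boxes, in many promoters of that programme. Myeloid cells sense antibodies through Fc receptors and microbes or debris through lectins and scavenger receptors, and many of these receptors signal through adaptors that carry an immunoreceptor tyrosine-based activation motif (ITAM). The kidney holds a resident macrophage network between its tubules, to which monocytes are added after injury. In whole-kidney RNA, a change in the number of myeloid cells cannot be told apart from a change in RNA per cell.

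Promoter sequence was available for 29 of the 40 genes, as windows of 300 bases (250 before to 50 after the first annotated start, RefSeq, GRCm38.p6). The core of the PU-box, GAGGAA on either strand, was present in 19 of these 29 windows (65.5%) and in 28.3% of the 27025 windows of all genes. The windows of the 29 genes had a median GC content of 45.0% and those of all genes 52.7%. The core was found in 15 of the 23 windows of genes that rose after ligation and in 4 of the 6 of genes that did not pass. Other motifs were searched on both strands in the same way. The extended PU-box GAGGAAGT, which contains the core, was in 3 of the 29 windows (3.28% of all), the RUNX site TGTGGT in 7 (16.9% of all), the C/EBP site TTGCNNAA in 6 (10.8% of all) and the AP-1 site TGANTCA in 3 (7.93% of all). A match is a description of these letters and not of binding. Below are the 120 bases before the start for the 6 genes that were called in both comparisons with CBDL and had a core match in that stretch, since these sequences show where the shared letters lie. Capitals mark the core, which reads TTCCTC where it lies on the opposite strand. The stretches lie at chr2:14229294-14229413 on the plus strand for Mrc1, chr3:96293970-96294089 on the minus strand for Fcgr1, chr1:171018806-171018925 on the plus strand for Fcgr4, chr3:106790150-106790269 on the minus strand for Cd53, chr4:130913196-130913315 on the plus strand for Laptm5 and chr6:129472780-129472899 on the minus strand for Clec7a.
Mrc1: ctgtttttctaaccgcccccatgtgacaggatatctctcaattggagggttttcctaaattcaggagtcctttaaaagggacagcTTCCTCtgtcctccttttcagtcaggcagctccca
Fcgr1: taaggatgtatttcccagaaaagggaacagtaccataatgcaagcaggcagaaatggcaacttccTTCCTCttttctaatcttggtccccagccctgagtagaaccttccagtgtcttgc
Fcgr4: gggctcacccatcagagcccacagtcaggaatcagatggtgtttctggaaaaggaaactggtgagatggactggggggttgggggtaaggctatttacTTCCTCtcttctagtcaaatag
Cd53: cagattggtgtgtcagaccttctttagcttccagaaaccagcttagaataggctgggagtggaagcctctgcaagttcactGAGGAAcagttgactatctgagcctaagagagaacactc
Laptm5: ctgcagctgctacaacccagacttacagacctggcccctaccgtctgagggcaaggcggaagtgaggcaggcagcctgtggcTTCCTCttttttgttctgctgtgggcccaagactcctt
Clec7a: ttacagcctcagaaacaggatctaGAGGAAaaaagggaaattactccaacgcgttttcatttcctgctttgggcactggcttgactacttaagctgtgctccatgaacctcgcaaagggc
In these 6, chosen for a core in this stretch, the first base of the marked core lay 35, 55, 22, 39, 38 and 96 bases before the start in Mrc1, Fcgr1, Fcgr4, Cd53, Laptm5 and Clec7a. Cd53 also held a core 9 to 14 bases after the start. Of the 13 windows of genes called in both comparisons, 9 held the core. Ptprc, Cd68 and Cybb held it outside the 120 bases, as Cybb did 10 bases after the start, and Csf1, Fcer1g, Ms4a4a and Ms4a6c did not hold it.

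Values are log2 signals, in which 1 unit is a 2-fold difference, and probe sets differ in brightness, so that levels are compared between groups and not between genes. A gene is said to have risen or fallen when limma's adjusted p over all 22180 genes was under 0.05. Arrays are listed in the order sham_158, sham_159 and sham_160, then CBDL_164, CBDL_165 and CBDL_170, then norUDCA_CBDL_172, norUDCA_CBDL_175 and norUDCA_CBDL_179, after the numbers in their labels. Array medians lay between 5.7 and 5.79. On the second principal component (13% of the variance over genes) the scores of sham_159 (-34.5) and CBDL_165 (-22.9) were far from those of the remaining 7 (3.4 to 12), and counts without both are given below. The labelled tissue was borne out by proximal tubule markers, whose mean signal per array ranged from 10.26 to 12.27. The labels do not say how the 3 samples of a group were obtained, so p-values measure the spread between these samples only.

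After ligation, 33 of the 40 myeloid genes rose (82.5%, against 10.3% of all genes) and 0 fell by limma (11.5% of all genes fell, and 0 of the 40 were lower also at an unadjusted p under 0.05, where 37 were higher). The median difference was 1.52, beside -0.06 over all genes, and 27 of the 33 genes rose at least 2-fold (against 3.09% of all genes). The largest differences among the 40 were those of Chil3, a secreted chitinase-like protein, at 3.99, Ms4a4a, a membrane protein of macrophages, at 3.59, Mrc1, the mannose receptor, at 3.16, and Msr1, a scavenger receptor, at 2.97. For 34 genes the lowest CBDL array lay above the highest sham array (against 15.6% of all genes). Leaving out sham_159 and CBDL_165 together left 29 genes that rose, and leaving out any 1 array left between 28 and 36. The 7 genes that did not pass were Fcgr2b, Clec4d, Clec4e, Marco, Lyz1, Ncf4 and Retnla.

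**Figure D1:**
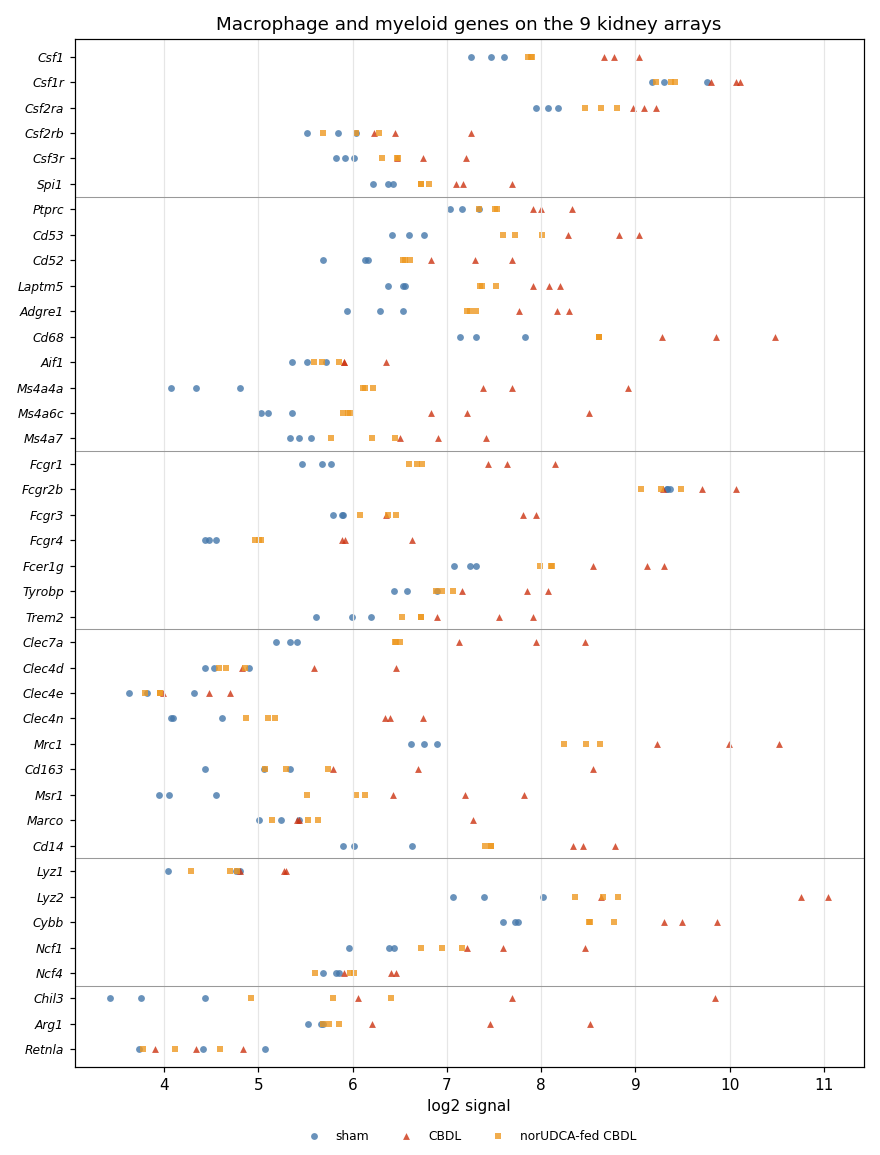
Log2 signal (horizontal axis) of the 40 myeloid genes on each of the 9 arrays, with genes grouped by role between the grey lines and 1 point per array. Most CBDL points (triangles) lie right of the sham points (circles). For 36 of the 40 genes the norUDCA-fed CBDL mean (squares) lies above the sham mean and below the CBDL mean, against 5153 of all 22180 genes.

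With norUDCA feeding before ligation, 18 of the 40 genes were lower than in CBDL (45%, against 3.2% of all genes) and 0 were higher by limma (3.61% of all genes were, and 0 of the 40 also at an unadjusted p under 0.05, where 38 were lower). The median difference was -0.87, beside 0.00 over all genes, and 10 genes fell at least 2-fold (against 0.721% of all genes). Each of the 18 had also risen after ligation, in a comparison that shares the CBDL arrays. The same held for 690 of the 709 genes called lower over all genes. For 30 genes every norUDCA-fed CBDL array lay below every CBDL array (against 12.6% of all genes). The largest decreases among genes that passed were those of Ms4a4a at -1.85, Ms4a6c, of the same family, at -1.58, Mrc1 at -1.47 and Clec4n, a lectin also known as dectin-2, at -1.45.

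The number of genes called lower under norUDCA depended on single arrays, while the median difference stayed between -1.05 and -0.79 when any 1 array was left out. Without CBDL_170 the count was 33, without CBDL_165 it was 12 and without CBDL_164 it was 8. Without norUDCA_CBDL_172, norUDCA_CBDL_175 or norUDCA_CBDL_179 it was 7, 4 and 9, and without sham_159 and CBDL_165 together it was 14. Over all genes the calls lower also dropped, from 709 to 212 without CBDL_164 and to 142 without norUDCA_CBDL_175. CBDL_170 was the lowest of the CBDL arrays for 33 of the 40 genes and the highest for 0, and over all genes it was the lowest for 33.4%. The mean over the 40 genes was 7.73, 7.94 and 7.11 on the CBDL arrays, between 5.92 and 6.03 on the sham arrays and between 6.62 and 6.68 on the norUDCA-fed CBDL arrays. The 4 genes that stayed lower under every alternative run were Csf1, Fcgr4, Clec4n and Cybb.

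**Figure D2:**
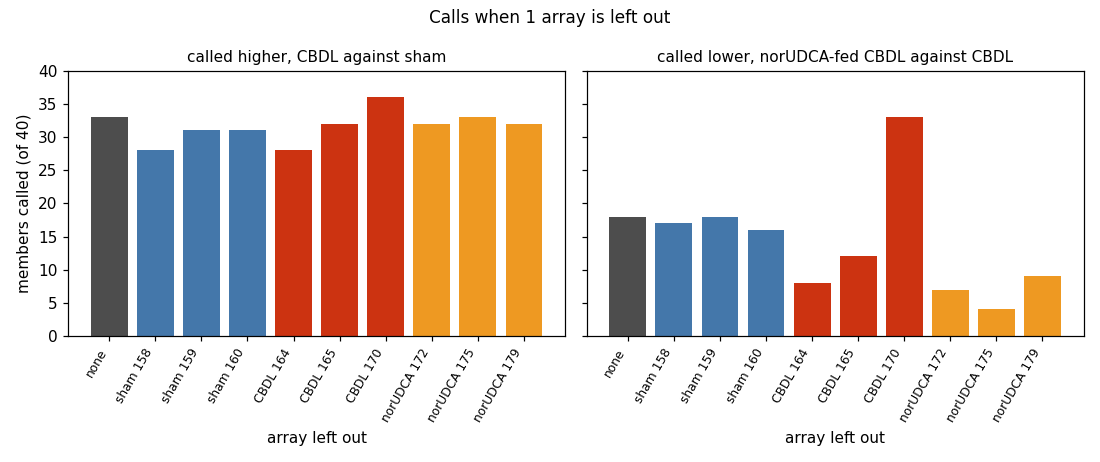
Number of the 40 myeloid genes called (vertical axis) with all arrays and with each array left out in turn, higher in CBDL than in sham at left and lower in norUDCA-fed CBDL than in CBDL at right. The left counts lie between 28 and 36, and the right counts between 4 and 33, with 33 when CBDL_170 is left out.

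Compared with sham, norUDCA-fed CBDL kidneys still had 14 of the 40 genes higher (35%, against 1.82% of all genes) and 0 lower by limma (1.37% of all genes were, and 0 of the 40 also at an unadjusted p under 0.05, where 24 were higher). The median difference was 0.57, beside -0.05 over all genes, and 8 of the 14 were at least 2-fold higher (against 0.546% of all genes). The groups did not overlap for 28 genes (against 8.96% of all genes). Ms4a4a at 1.75, Msr1 at 1.71 and Mrc1 at 1.69 differed most among those called. Of the 18 genes lowered under norUDCA, 13 remained above sham and 5 (Csf1, Csf1r, Ptprc, Ms4a6c and Fcgr4) were not called against sham, which does not show that they had returned to its level. Over all genes, 690 had risen after ligation and were lower with norUDCA, of which 219 remained above sham. Among the 5 genes not called, Ms4a6c and Fcgr4 were called above sham with only the 6 arrays compared. In that run Csf2ra and Clec4n lost their calls. Ms4a6c was also called above sham without CBDL_165 and without sham_159 and CBDL_165 together, and Fcgr4 without CBDL_164. Csf1 was called above sham with array weights and without sham_159 and CBDL_165 together, and Csf1r and Ptprc under no alternative. In the main fit Csf2ra rose against sham and missed the threshold against CBDL. The count was 7, 8 and 7 without sham_158, sham_159 and sham_160, and 5, 7 and 1 without norUDCA_CBDL_172, norUDCA_CBDL_175 and norUDCA_CBDL_179, the last of these being Laptm5. Over all genes the calls higher also dropped, from 1.82% to 0.613%, 1.11% and 0.464% without these 3 arrays and to 1.12%, 1.34% and 0.775% without the sham arrays. Each of these 3 comparisons shares arrays with the other two.

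**Figure D3:**
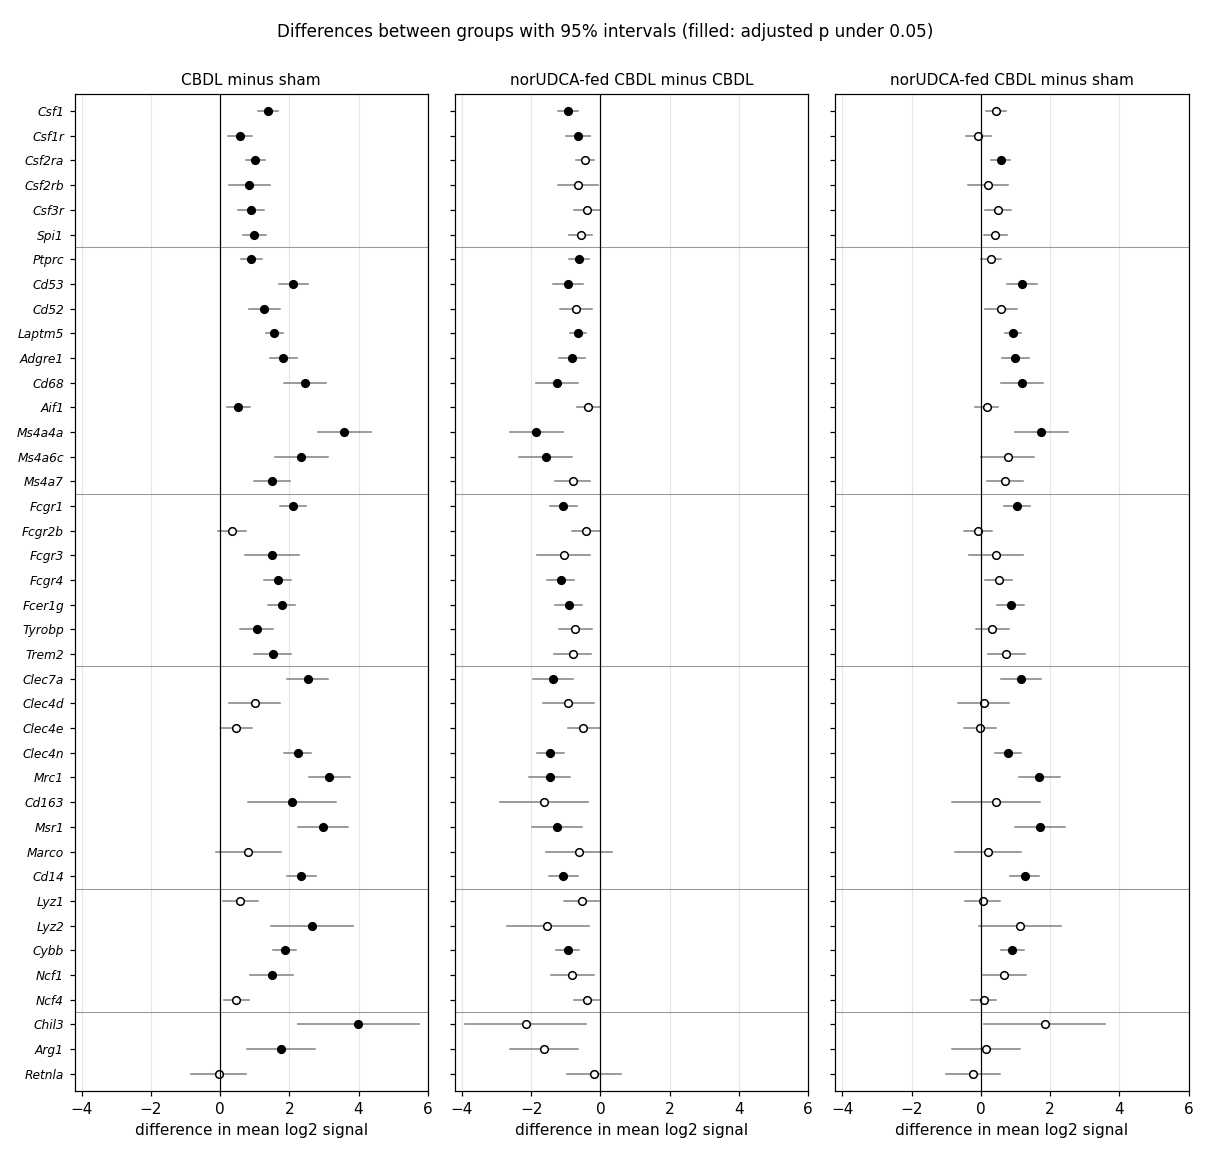
Difference in mean log2 signal (horizontal axis) for each of the 40 genes in the 3 comparisons, with 95% intervals from limma, filled where the adjusted p was under 0.05. Filled points are at the right of 0 in the left panel (33 genes), at the left of 0 in the middle panel (18) and at the right in the last panel (14).

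The growth factor axis and Spi1 rose as a group, 6 of 6 after ligation, and 2 of 6 (Csf1 and Csf1r) were lower with norUDCA. Csf1, the growth factor that macrophages need, had signals of 7.26, 7.61 and 7.47 on the sham arrays, 8.77, 9.04 and 8.67 on the CBDL arrays and 7.90, 7.86 and 7.89 on the norUDCA-fed CBDL arrays. The 3 groups did not overlap. Csf1 changed by 1.38 (SE 0.13, adjusted p = 8.41e-05) after ligation, by -0.94 (SE 0.13, adjusted p = 0.00794) with norUDCA and differed from sham by 0.44 (adjusted p = 0.107). Its receptor gene Csf1r had signals of 9.18, 9.76 and 9.30 on the sham arrays, 10.07, 10.11 and 9.80 on the CBDL arrays and 9.22, 9.42 and 9.38 on the norUDCA-fed CBDL arrays, so that the norUDCA-fed CBDL arrays lay within the sham range. Csf1r changed by 0.58 (SE 0.16, adjusted p = 0.0249) and by -0.65 (SE 0.16, adjusted p = 0.0378), calls that ended when any 1 of 4 arrays was left out in the first case (sham_158, sham_160, CBDL_164 or CBDL_165, adjusted p up to 0.0874) and of 6 in the second (sham_160, CBDL_164, CBDL_165 or any norUDCA-fed CBDL array, adjusted p up to 0.13). Spi1 was 6.22, 6.43 and 6.37 in sham and 7.69, 7.17 and 7.10 in CBDL, a change of 0.98 (SE 0.15, adjusted p = 0.0012), and 6.81, 6.73 and 6.72 with norUDCA, below each CBDL array, a difference that missed the threshold, -0.57 (adjusted p = 0.0515). Csf2ra and Csf2rb, the chains of the receptor for GM-CSF, differed after ligation by 1.02 (adjusted p = 0.000292) and 0.85 (adjusted p = 0.0437). The call of Csf2rb ended when any 1 of 7 arrays was left out (all but CBDL_165 and norUDCA_CBDL_175, adjusted p up to 0.135). Csf3r, the receptor for G-CSF found on neutrophils and monocytes, had a sham mean of 5.92 ± 0.09, a CBDL mean of 6.81 ± 0.37 and a mean of 6.42 ± 0.09 with norUDCA (SD, n = 3 each), a change of 0.89 (adjusted p = 0.00374) after ligation.

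Of the other colony-stimulating factors and receptors, 2 of 6 measured rose and 1 fell back. Il34, the second ligand of CSF1R and a product of tubule cells, was 7.88, 8.55 and 8.23 in sham, 9.52, 10.29 and 9.66 in CBDL and 8.92, 8.28 and 8.92 with norUDCA, changes of 1.60 (SE 0.25, adjusted p = 0.00142) and -1.11 (SE 0.25, adjusted p = 0.0297). The second call ended when any 1 of 5 arrays was left out (each CBDL array but CBDL_170, and each norUDCA-fed CBDL array, adjusted p up to 0.113). Csf2rb2, a mouse relative of Csf2rb, changed by 2.07 (adjusted p = 0.00137) after ligation. The growth factor genes Csf2 and Csf3 were dim in each group, with means between 4.46 and 5.08, and did not pass in any comparison. Among 6 other myeloid transcription factors, Runx1, which acts early in blood formation, rose by 2.29 (SE 0.20, adjusted p = 7.09e-05) and fell with norUDCA by 1.39 (adjusted p = 0.00815), while staying above sham at 0.90 (adjusted p = 0.045), a call lost when any 1 of 8 arrays was left out (all but CBDL_170, adjusted p up to 0.147). Cebpb also rose, at 0.92 (adjusted p = 0.00196), and Nr1h3, a sterol-sensing receptor also made by tubules, fell, at -0.74 (adjusted p = 0.00738).

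All 10 leukocyte and macrophage surface or marker genes rose after ligation, and 7 of the 10 were lower with norUDCA. Ptprc encodes CD45, found on all nucleated blood cells, and had signals of 7.03, 7.34 and 7.16 on the sham arrays, 8.33, 7.91 and 8.0 on the CBDL arrays and 7.51, 7.53 and 7.34 on the norUDCA-fed CBDL arrays. Its CBDL arrays lay above all others. Ptprc changed by 0.90 (SE 0.13, adjusted p = 0.00105) and by -0.61 (SE 0.13, adjusted p = 0.026). Adgre1, which encodes the macrophage marker F4/80, had signals of 5.94, 6.53 and 6.29 on the sham arrays, 8.30, 8.17 and 7.76 on the CBDL arrays and 7.21, 7.24 and 7.31 on the norUDCA-fed CBDL arrays. These were 3 separate ranges, and Adgre1 rose by 1.82 (SE 0.17, adjusted p = 0.000103), was lower with norUDCA, at -0.82 (adjusted p = 0.0232) and stayed above sham by 1.0 (adjusted p = 0.0158). Cd68, a lysosomal membrane protein of phagocytes, had signals of 7.31, 7.83 and 7.14 on the sham arrays, 9.86, 10.48 and 9.28 on the CBDL arrays and 8.61, 8.61 and 8.61 on the norUDCA-fed CBDL arrays. The norUDCA-fed CBDL arrays agreed to 2 decimals and lay between the other groups, and the change after ligation was 2.45 (SE 0.27, adjusted p = 0.000213), or 5.45-fold. Laptm5, a lysosomal protein of blood cells, changed by 1.57 (adjusted p = 2.88e-05), -0.65 (adjusted p = 0.0111) and 0.93 (adjusted p = 0.00289) in the 3 comparisons. Cd53, a tetraspanin of leukocytes, changed by 2.12 (adjusted p = 8.58e-05), -0.94 (adjusted p = 0.0216) and 1.18 (adjusted p = 0.0125). Cd52, a small glycoprotein of leukocytes, rose by 1.28 (adjusted p = 0.0015) and differed with norUDCA by -0.71 (adjusted p = 0.0712). Aif1, which encodes the actin-binding protein IBA1, had the smallest rise of the group, 0.52 (adjusted p = 0.0312), and lost this call without sham_158, sham_160 or CBDL_164 (adjusted p up to 0.106).

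The 3 Ms4a genes, of which Ms4a7 and Ms4a4a are direct neighbours on their chromosome, encode tetraspan membrane proteins of macrophages. Ms4a4a had signals of 4.07, 4.80 and 4.34 on the sham arrays, 7.69, 8.92 and 7.38 on the CBDL arrays and 6.13, 6.11 and 6.22 on the norUDCA-fed CBDL arrays. The ranges were far apart, with a change of 3.59 (SE 0.34, adjusted p = 9.99e-05) after ligation and of -1.85 (SE 0.34, adjusted p = 0.015) with norUDCA. Ms4a6c was 5.03, 5.10 and 5.36 in sham, 7.21, 8.51 and 6.83 in CBDL and 5.95, 5.97 and 5.90 with norUDCA. CBDL_165 was the highest of all for both genes. Ms4a7 had a sham mean of 5.44 ± 0.11, a CBDL mean of 6.94 ± 0.45 and a mean of 6.14 ± 0.34 with norUDCA (SD, n = 3 each), and rose by 1.5 (adjusted p = 0.00124), with a difference of -0.80 (adjusted p = 0.0718) with norUDCA. The sham means of Ms4a4a and Ms4a6c were under 5.20, below which the dimmest 33.3% of genes lie. Signal above background is not shown there, so that the size of these differences is open, as it is for Fcgr4, Clec4n, Msr1, Cd163 and Chil3.

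Among Fc receptors and ITAM adaptors, 6 of 7 rose after ligation, and 3 of 7 (Fcgr1, Fcgr4 and Fcer1g) were lower with norUDCA. Fcgr1, the high-affinity receptor for IgG, had signals of 5.67, 5.77 and 5.46 on the sham arrays, 8.15, 7.64 and 7.44 on the CBDL arrays and 6.68, 6.6 and 6.74 on the norUDCA-fed CBDL arrays. The groups formed separate ranges, and Fcgr1 changed by 2.11 (SE 0.17, adjusted p = 5.21e-05), -1.07 (SE 0.17, adjusted p = 0.0101) and, against sham, 1.04 (SE 0.17, adjusted p = 0.0126). Fcgr4, a receptor for IgG2 antibodies, had signals of 4.55, 4.48 and 4.43 on the sham arrays, 6.63, 5.92 and 5.89 on the CBDL arrays and 5.01, 4.96 and 5.03 on the norUDCA-fed CBDL arrays. It rose by 1.66 (SE 0.17, adjusted p = 0.000163) and was lower with norUDCA, at -1.15 (SE 0.17, adjusted p = 0.0091). Fcgr3, a low-affinity activating receptor, was 5.90, 5.89 and 5.79 in sham but 7.81, 7.95 and 6.35 in CBDL, where CBDL_170 lay close to the norUDCA-fed CBDL arrays at 6.46, 6.08 and 6.38. Fcgr3 rose by 1.51 (adjusted p = 0.0114), and this was not called when sham_159 and CBDL_165 were both left out. The inhibitory receptor Fcgr2b, which the endothelium also makes, had a sham mean of 9.35 ± 0.02, a CBDL mean of 9.69 ± 0.39 and a mean of 9.27 ± 0.21 with norUDCA (SD, n = 3 each) and did not pass in any comparison, with a difference after ligation of 0.34 (95% interval -0.07 to 0.75, adjusted p = 0.225). Fcgr2b, Fcgr4 and Fcgr3 are consecutive genes on chromosome 1 and related in sequence, and whether their probes read each other was not tested.

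The adaptors of these receptors and Trem2 rose too. Fcer1g, the common gamma chain, had signals of 7.25, 7.31 and 7.07 on the sham arrays, 9.30, 9.12 and 8.55 on the CBDL arrays and 7.99, 8.10 and 8.12 on the norUDCA-fed CBDL arrays, again 3 separate ranges. It changed by 1.78 (SE 0.17, adjusted p = 0.000113), -0.92 (SE 0.17, adjusted p = 0.016) and 0.86 (SE 0.17, adjusted p = 0.0287). Tyrobp, the adaptor DAP12, had a sham mean of 6.64 ± 0.24, a CBDL mean of 7.69 ± 0.47 and a mean of 6.96 ± 0.09 with norUDCA (SD, n = 3 each), and rose by 1.06 (adjusted p = 0.00583). Trem2, a lipid-sensing receptor that pairs with DAP12, had a sham mean of 5.93 ± 0.30, a CBDL mean of 7.45 ± 0.52 and a mean of 6.66 ± 0.12 with norUDCA (SD, n = 3 each), and rose by 1.53 (adjusted p = 0.00137). With norUDCA the differences were -0.73 (adjusted p = 0.0759) for Tyrobp and -0.79 (adjusted p = 0.0825) for Trem2. Of 10 measured kinases and adaptors downstream of ITAMs, 5 rose after ligation, 2 were lower with norUDCA and 1 was above sham. The 5 were Inpp5d, an inositol phosphatase, at 1.43 (adjusted p = 5.31e-05), Lcp2, a scaffold protein, at 1.29 (adjusted p = 0.00118), Vav1, an exchange factor, at 0.99 (adjusted p = 0.0087), Btk, a kinase, at 0.82 (adjusted p = 0.00994), and Syk, the kinase that docks on ITAMs, at 0.76 (adjusted p = 0.0156). Inpp5d and Lcp2 were lower with norUDCA, at -0.63 (adjusted p = 0.0156) and -0.88 (adjusted p = 0.0279), calls lost when any 1 of 3 and 5 arrays was left out (adjusted p up to 0.0675 and 0.102). Inpp5d was above sham by 0.80 (adjusted p = 0.00817). Syk was not called without sham_158, sham_160 or CBDL_164 (adjusted p up to 0.0552).

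Of 9 C-type lectins and scavenger receptors, 6 rose after ligation and 5 (Clec7a, Clec4n, Mrc1, Msr1 and Cd14) were lower with norUDCA and also remained above sham. Mrc1, the mannose receptor of tissue macrophages, had signals of 6.62, 6.89 and 6.76 on the sham arrays, 9.99, 10.52 and 9.23 on the CBDL arrays and 8.24, 8.62 and 8.48 on the norUDCA-fed CBDL arrays. The groups did not overlap, and Mrc1 rose 8.96-fold, by 3.16 (SE 0.27, adjusted p = 6.1e-05), fell by 1.47 with norUDCA (SE 0.27, adjusted p = 0.0144) and stayed above sham by 1.69 (SE 0.27, adjusted p = 0.0108). Clec7a, the beta-glucan receptor dectin-1, had signals of 5.34, 5.41 and 5.19 on the sham arrays, 8.46, 7.94 and 7.13 on the CBDL arrays and 6.50, 6.45 and 6.46 on the norUDCA-fed CBDL arrays, and changed by 2.53 (SE 0.26, adjusted p = 0.000153) and -1.38 (SE 0.26, adjusted p = 0.0167). Clec4n, which recognises fungal mannans, had signals of 4.07, 4.09 and 4.61 on the sham arrays, 6.75, 6.34 and 6.40 on the CBDL arrays and 4.87, 5.18 and 5.10 on the norUDCA-fed CBDL arrays. It rose by 2.24 (SE 0.17, adjusted p = 4.11e-05) and was lower with norUDCA, at -1.45 (SE 0.17, adjusted p = 0.00655), with CBDL arrays close together. Clec4d, its direct neighbour, and Clec4e, which follows Clec4d, are also lectins of myeloid cells and were dim. Clec4d was 4.90, 4.53 and 4.43 in sham and 5.59, 6.46 and 4.83 in CBDL, so that CBDL_170 lay within the sham range, and its difference of 1.01 just missed the threshold (95% interval 0.27 to 1.74, adjusted p = 0.0544). Clec4e differed by 0.47 (95% interval 0.00 to 0.93, adjusted p = 0.148).

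The scavenger receptors differed in how evenly they rose. Msr1, which takes up modified lipoproteins, had signals of 3.94, 4.05 and 4.55 on the sham arrays, 7.19, 7.82 and 6.43 on the CBDL arrays and 5.51, 6.13 and 6.03 on the norUDCA-fed CBDL arrays. Every CBDL array was above every other, and Msr1 changed by 2.97 (SE 0.32, adjusted p = 0.000187), -1.26 (SE 0.32, adjusted p = 0.0466) and 1.71 (SE 0.32, adjusted p = 0.0221). The second call of Msr1 ended when any 1 of 8 arrays was left out (all but CBDL_170, adjusted p up to 0.158). The third ended without sham_158, sham_159, norUDCA_CBDL_175 or norUDCA_CBDL_179 (adjusted p up to 0.105). Cd14, the co-receptor for endotoxin that injured tubules can also make, had signals of 5.90, 6.63 and 6.01 on the sham arrays, 8.34, 8.78 and 8.44 on the CBDL arrays and 7.47, 7.40 and 7.47 on the norUDCA-fed CBDL arrays. Its 3 ranges were separate, with changes of 2.34 (SE 0.19, adjusted p = 4.95e-05), -1.07 (SE 0.19, adjusted p = 0.0131) and 1.27 (SE 0.19, adjusted p = 0.00853). Cd163, the receptor for haemoglobin-haptoglobin complexes, was 5.06, 4.43 and 5.33 in sham, 6.69, 8.55 and 5.79 in CBDL and 5.07, 5.29 and 5.74 with norUDCA. CBDL_165 stood well above the other CBDL arrays, and the change of 2.07 (SE 0.57, adjusted p = 0.0267) ended without sham_158, sham_159 or CBDL_164 (adjusted p up to 0.096). Marco, a receptor for bacteria, was 5.01, 5.24 and 5.43 in sham and 5.43, 7.28 and 5.41 in CBDL, high on CBDL_165 alone, and did not pass (0.81, 95% interval -0.13 to 1.76, adjusted p = 0.216).

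Of the lysozymes and oxidase subunits, 3 of 5 rose after ligation, and Cybb alone was lower with norUDCA. Lyz2, the lysozyme of macrophages, had signals of 7.06, 8.02 and 7.39 on the sham arrays, 10.76, 11.04 and 8.64 on the CBDL arrays and 8.66, 8.82 and 8.36 on the norUDCA-fed CBDL arrays. CBDL_164 and CBDL_165 were far above all others, while CBDL_170 lay among the norUDCA-fed CBDL arrays. Lyz2 rose by 2.66 (SE 0.53, adjusted p = 0.00551), and its difference with norUDCA, -1.53 (adjusted p = 0.132), was called only without CBDL_170 among the alternatives run. Its direct neighbour Lyz1, the lysozyme of Paneth cells, was dim, with a sham mean of 4.53 ± 0.43, a CBDL mean of 5.12 ± 0.27 and a mean of 4.58 ± 0.26 with norUDCA (SD, n = 3 each), and did not pass (0.58 after ligation, 95% interval 0.08 to 1.09, adjusted p = 0.099). Whether the probes of these related genes read each other was not tested. Cybb, the catalytic subunit of the phagocyte NADPH oxidase, had signals of 7.60, 7.72 and 7.75 on the sham arrays, 9.87, 9.30 and 9.49 on the CBDL arrays and 8.77, 8.51 and 8.52 on the norUDCA-fed CBDL arrays. The ranges were separate, and Cybb changed by 1.87 (SE 0.15, adjusted p = 4.61e-05), -0.95 (SE 0.15, adjusted p = 0.00931) and 0.91 (SE 0.15, adjusted p = 0.0118). Ncf1, a cytosolic subunit that activates the enzyme, rose by 1.49 (adjusted p = 0.00402), and Ncf4, another such subunit, differed by 0.47 (adjusted p = 0.0701). Of 3 other oxidase genes measured, Rac2, a small GTPase of blood cells, rose by 1.0 (adjusted p = 0.00143), while Cyba, the partner of Cybb, fell by 0.63 (adjusted p = 0.00953) and Nox4, the oxidase of tubule cells, by 0.44 (adjusted p = 0.0117). Cyba is also made by tubule cells, where it partners Nox4, and it was higher with norUDCA than in CBDL by 0.56 (adjusted p = 0.0441), a call lost when any 1 of 8 arrays was left out (all but CBDL_170, adjusted p up to 0.147).

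The 3 genes of alternative activation, the state that interleukins 4 and 13 induce, did not move as 1 group. Chil3 had signals of 3.43, 3.75 and 4.43 on the sham arrays, 7.69, 9.84 and 6.06 on the CBDL arrays and 6.41, 4.92 and 5.79 on the norUDCA-fed CBDL arrays. It rose by 3.99 (SE 0.78, adjusted p = 0.00493) with the widest CBDL spread of the 40 genes (SD 1.90), and the difference with norUDCA was -2.16 (95% interval -3.90 to -0.41, adjusted p = 0.15). Arg1, an enzyme that breaks down arginine, had signals of 5.53, 5.66 and 5.68 on the sham arrays, 7.46, 8.52 and 6.21 on the CBDL arrays and 5.86, 5.69 and 5.75 on the norUDCA-fed CBDL arrays. All CBDL arrays were above all others, the norUDCA-fed CBDL arrays lay just above the sham range, and the changes were 1.77 (SE 0.44, adjusted p = 0.0165) and -1.63 (SE 0.44, adjusted p = 0.0565). The first call of Arg1 ended without sham_158 or CBDL_164 (adjusted p up to 0.054). Retnla, a secreted protein of alternatively activated macrophages, was dim and overlapped throughout, with a sham mean of 4.40 ± 0.67, a CBDL mean of 4.36 ± 0.47 and a mean of 4.16 ± 0.41 with norUDCA (SD, n = 3 each), with a difference after ligation of -0.04 (95% interval -0.83 to 0.74, adjusted p = 0.946). Of 13 other genes of this state, 3 rose after ligation, 2 were lower with norUDCA and 1 was above sham, and 6 of the 13 were dim. Egr2, a transcription factor, changed by 2.0 (adjusted p = 0.00013) and -1.09 (adjusted p = 0.015), Il4ra, the receptor chain for both cytokines, by 1.06 (adjusted p = 0.00162) and -0.83 (adjusted p = 0.0211), and Ccl17, a chemokine, by 1.53 (adjusted p = 0.00344) after ligation. The calls of Egr2 and Il4ra with norUDCA were lost when any 1 of 2 and 4 arrays was left out (adjusted p up to 0.0675 and 0.0822). Egr2 exceeded sham by 0.91 (adjusted p = 0.0424), lost when any 1 of 7 arrays was left out (adjusted p up to 0.166). Of 11 genes of inflammatory activation, 7 rose (3 without CBDL_164), led by p by Tnf at 0.96 (adjusted p = 0.000192), Ccl2 at 1.59 (adjusted p = 0.00179), Cd86 at 0.99 (adjusted p = 0.00267) and Cd80 at 0.66 (adjusted p = 0.0133), the last lost without sham_158 or CBDL_164 (adjusted p up to 0.054). Nos2, the inducible nitric oxide synthase set against Arg1 in many studies, had a sham mean of 5.88 ± 0.05, a CBDL mean of 5.92 ± 0.07 and a mean of 5.74 ± 0.12 with norUDCA (SD, n = 3 each) and differed by 0.04 (adjusted p = 0.834) after ligation. With norUDCA, Tnf at -0.44 (adjusted p = 0.0363) and Ccl2 at -1.28 (adjusted p = 0.0202) were lower, each lost when any 1 of 6 and 5 arrays was left out (adjusted p up to 0.117 and 0.0815). Tnf stayed above sham at 0.52 (adjusted p = 0.0285), lost when any 1 of 7 arrays was left out (adjusted p up to 0.12).

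A list of 22 other macrophage markers had 19 genes higher after ligation (median 1.71), 17 lower with norUDCA (median -0.95) and 12 above sham (median 0.69). With 1 array left out these counts ranged from 18 to 20, from 5 (without norUDCA_CBDL_175) to 17 and from 4 (without norUDCA_CBDL_179) to 14. By p the first were Ctss, a lysosomal protease, at 2.88 (adjusted p = 2.82e-05), Apoe, a lipid carrier, at 2.07 (adjusted p = 2.98e-05), C1qc, a complement chain, at 2.18 (adjusted p = 3.45e-05), and Mpeg1, a pore-forming protein, at 2.23 (adjusted p = 3.99e-05). With norUDCA the lowest p values were those of Ctss at -1.61 (adjusted p = 0.00655), Mpeg1 at -1.19 (adjusted p = 0.00815), Itgb2, the leukocyte integrin beta chain, at -1.04 (adjusted p = 0.00815), and Ccr2, the receptor that brings monocytes into tissue, at -0.76 (adjusted p = 0.00824). Apoe had a sham mean of 7.24 ± 0.02, a CBDL mean of 9.31 ± 0.23 and a mean of 8.94 ± 0.22 with norUDCA (SD, n = 3 each). It was not called against CBDL (-0.36, 95% interval -0.68 to -0.04, adjusted p = 0.192), and its norUDCA-fed CBDL mean stayed 1.70 above sham (adjusted p = 0.000726), with C1qc at 1.24 (adjusted p = 0.00455), Itgam, the integrin CD11b, at 1.44 (adjusted p = 0.00612), and Pld4, an endosomal nuclease, at 1.09 (adjusted p = 0.00853).

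Markers of other blood cells were counted in the same way. Of 13 neutrophil markers, 10 were dim, 3 rose after ligation (Retnlg at 0.89 (adjusted p = 0.0234), Cxcr2 at 0.48 (adjusted p = 0.0389) and Mmp9 at 1.27 (adjusted p = 0.0182), each call ending when any 1 of 3, 5 and 4 arrays was left out and all 3 without CBDL_165, adjusted p up to 0.0811, 0.11 and 0.0689). None was lower with norUDCA by limma (1 at an unadjusted p under 0.05). The neutrophil markers S100a8, S100a9 and Ly6g lay between 3.20 and 5.34 over all arrays, and the list mean lay between 4.56 and 4.79 in sham, 4.68 and 5.10 in CBDL, and 4.61 and 4.82 with norUDCA. Of 10 markers of T and natural killer cells, 5 of them dim, none was called in any comparison by limma (0 after ligation and 0 with norUDCA at an unadjusted p under 0.05, and 1 against sham). Of 6 B and plasma cell markers 2 fell after ligation, Cd79a at -0.72 (adjusted p = 0.00291) and Jchain at -1.61 (adjusted p = 0.00864). Cd79a was also below sham with norUDCA at -0.58 (adjusted p = 0.0425), lost when any 1 of 7 arrays was left out (all but CBDL_165 and CBDL_170, adjusted p up to 0.13). The Jchain call ended without sham_159 and CBDL_165 together. Of 5 dendritic and 6 mast cell and basophil markers none was called in any comparison (at an unadjusted p under 0.05, 1 and 2 after ligation, 0 and 4 with norUDCA, and 0 and 1 against sham). All 6 mast cell and basophil markers were dim. For dim markers a missing call does not show that the cells were unchanged. Peritoneal macrophage markers, of which Gata6 and Selp are also made by other cells, rose in 3 of 4, with Gata6 at 0.97 (adjusted p = 0.000131), Selp at 1.47 (adjusted p = 0.000123) and Prg4 at 1.70 (adjusted p = 0.0236), the last lost without sham_158 or sham_160 (adjusted p up to 0.0757). Selp was lower with norUDCA at -0.72 (adjusted p = 0.02), and Gata6 and Selp stayed above sham at 0.61 (adjusted p = 0.0119) and 0.75 (adjusted p = 0.0257). The call of Selp ended when any 1 of 4 arrays was left out against CBDL (CBDL_164, CBDL_165, norUDCA_CBDL_175 or norUDCA_CBDL_179, adjusted p up to 0.0851). Against sham it ended without any of 5 (sham_158, sham_159 or any norUDCA-fed CBDL array, adjusted p up to 0.115). That of Gata6 ended without norUDCA_CBDL_172 or norUDCA_CBDL_179 (adjusted p up to 0.0635). The mean of that list was 5.12 to 5.24 in sham, 6.0 to 6.78 in CBDL and 5.62 to 5.76 with norUDCA. Whether attached peritoneal cells had a part in the result was not tested.

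Among the marker lists examined, those of tubule and fat also changed. The mean of 6 proximal tubule markers lay between 12.23 and 12.27 in sham, between 10.26 and 11.43 in CBDL and between 11.86 and 12 with norUDCA. Within the CBDL group the array with the highest tubule mean, CBDL_170, had the lowest mean over the 40 myeloid genes. The mean of 6 adipose markers lay between 5.88 and 6.80 in sham, between 7.24 and 8.50 in CBDL and between 6.24 and 7.55 with norUDCA. Here CBDL_170 was the highest, 3 of the 6 rose after ligation (Adipoq, Cidec and Retn) and Adipoq was lower with norUDCA, at -1.48 (adjusted p = 0.0148). This last call ended without CBDL_164 or norUDCA_CBDL_175 (adjusted p up to 0.0597). The call of Retn ended when any 1 of 5 arrays was left out (sham_159, sham_160, CBDL_164, CBDL_170 or norUDCA_CBDL_175, adjusted p up to 0.122). All 6 proximal tubule markers fell after ligation, from -2.55 for Slc22a6 and -1.91 for Slc5a2, both transporters, to -0.65 for Aqp1, a water channel, whose call ended without sham_158 (adjusted p = 0.0647). With norUDCA, 5 were higher than in CBDL (Lrp2, Cubn, Slc34a1, Slc5a2 and Slc22a6). Each of these calls ended without CBDL_164 or any norUDCA-fed CBDL array, and that of Slc22a6 also without any sham array or CBDL_165 (adjusted p up to 0.163). Of 5 markers of other kidney epithelium, Slc12a3 at -0.45 (adjusted p = 0.0383) and Nphs1 at -0.40 (adjusted p = 0.0302) fell, and Slc12a3 was higher with norUDCA at 0.52 (adjusted p = 0.05), under the threshold before rounding. The calls of Slc12a3 ended when any 1 of 7 and 9 arrays was left out (adjusted p up to 0.106 and 0.145). That of Nphs1 ended when any 1 of 5 was (any sham array, CBDL_164 or CBDL_165, adjusted p up to 0.1). The part of either list in the myeloid differences was not tested.

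**Figure D4:**
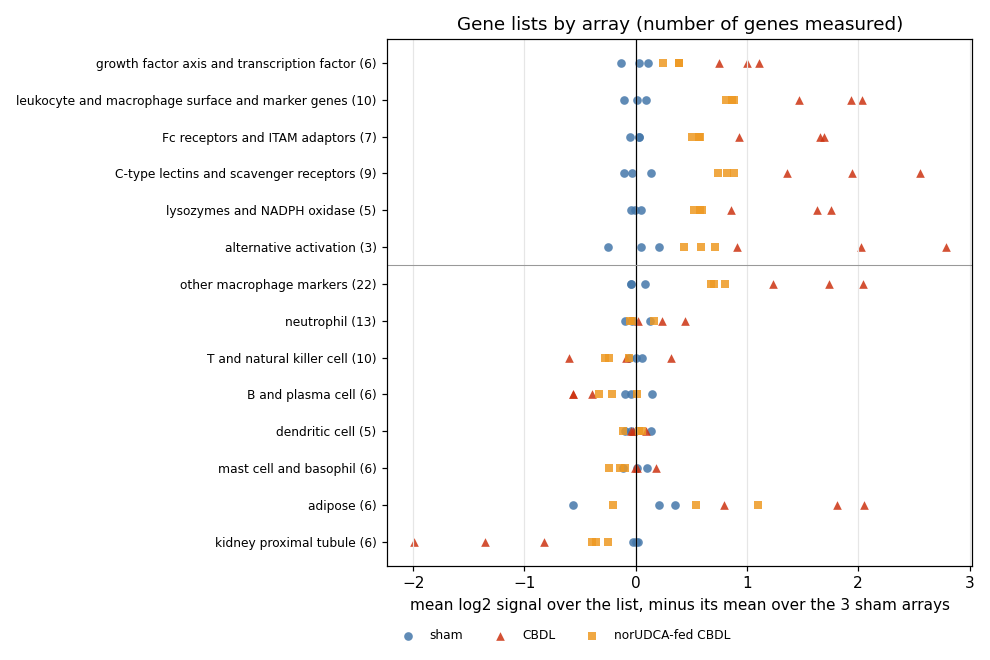
Mean log2 signal of gene lists on each array, minus the mean of the 3 sham arrays (horizontal axis), for the 6 role groups of the 40 genes above the grey line and for marker lists below it, with 1 point per array. In each of the 6 role groups the CBDL points lie highest and the norUDCA-fed CBDL points between CBDL and sham, while proximal tubule markers lie below it in CBDL.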

How the data were processed

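Per the labels' protocols, kidney RNA was isolated using TRIzol and prepared using an Affymetrix WT PLUS kit. The authors deposited log2 signals, 1 per transcript cluster and array, and the submitters' processing notes name RMA, which corrects background and equalises arrays, and Partek 6.6. The build behind the clusters, filters and batch steps are not given in the sources used here. Of 41345 rows, 23521 carried 1 gene symbol, and the brightest row per gene over the 9 arrays gave 22180 genes, none left out for low signal. limma 3.58.1 in R 4.3.3 was fitted with 1 mean per group over all 9 arrays (6 residual and 3.77 prior degrees of freedom), two-sided, with Benjamini-Hochberg adjustment over all genes. With 3 arrays against 3 an exact permutation test cannot go below p = 0.1, so no such test was used, and precision is limited by the number of arrays. The fit was tested on simulated data in which a gene had the same spread in every group, so unequal spread between groups was not covered.

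The 40 genes and all lists were chosen with earlier results of these data known, so lists are described by counts and medians beside those of all genes, with no test over a list. All 40 genes are accounted for. Of each further myeloid list every called gene is named where 5 or fewer were called, otherwise the 4 with the lowest p. Called markers of other cell types are all named, and Apoe with norUDCA, Csf2, Csf3, Nos2, S100a8, S100a9 and Ly6g were added after their values were seen. Alternatives were an intensity trend, array weights, only the 6 arrays compared, no dim genes, the mean of a gene's rows, renewed quantile normalization, median centring, each array left out and, chosen after seeing the data, sham_159 and CBDL_165 left out together.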

Additional observations from a re-analysis of the deposited data

How the results depend on the processing

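Under the 17 alternatives, 27 of the 33 genes that rose after ligation kept their call, and Aif1, Arg1, Cd163, Csf1r, Csf2rb and Fcgr3 lost it under 1 or more, all 33 keeping their direction. Each of the 40 genes had 1 row, so the mean of a gene's rows left their values unchanged and was no check of them. Genes called higher in CBDL ranged from 28 to 36 and the median difference from 1.30 to 1.77 with 1 array left out. Of the 18 genes lower with norUDCA than in CBDL, 4 kept the call under every alternative. The count ranged from 4 to 33 with 1 array left out and was 12 with only the 6 arrays compared, 21 with an intensity trend, 25 with array weights, 24 of 36 without dim genes, and 19 after quantile normalization or median centring. Of the 14 genes above sham in norUDCA-fed CBDL, only Laptm5 kept its call under every alternative, and the count ranged from 1 to 15 with 1 array left out. No myeloid gene with a call changed direction under any alternative run. Among markers, Cd209a after ligation was 0.13 (not called) and -0.55 (adjusted p = 0.00537) with the mean of its rows, and the cause was not tested. Median centring moved the median of all genes after ligation from -0.06 to -0.10. No paired analysis was possible because the groups share no replicate numbers. With 4 of the 40 genes under the level of the dimmest 33.3% of genes, signal over background limits what can be said of Clec4d, Clec4e, Lyz1 and Retnla.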

Other observations

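Within the CBDL group the 40 genes were not highest on the same array. CBDL_165 was highest for 24 of them, among them Mrc1, Cd163, Msr1, Marco, Lyz2, Chil3, Arg1, Ms4a4a and Ms4a6c, and CBDL_164 for 16, among them Spi1, Ptprc, Adgre1, Fcgr1, Fcgr4, Fcer1g, Clec7a and Cybb. Over all genes, CBDL_165 was the highest of the group for 43.3% and CBDL_164 for 28.9%. The SD over the CBDL arrays had a median of 0.42 over the 40 genes, against 0.15 over all genes, while the medians were 0.20 and 0.15 in sham and 0.12 and 0.12 with norUDCA. The CBDL group had the largest of the 3 SDs for 33 of the 40 genes, against 37.2% of all genes.

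Of the 22 other macrophage markers, 19 rose after ligation, and the 3 that did not pass were Vsig4, Lyve1 and Folr2. These 3, and Timd4 and Gpnmb among the 19, are described here after their values were seen. Vsig4, a complement receptor, was 3.68, 4.26 and 3.50 in sham and 4.38, 7.06 and 3.87 in CBDL. Lyve1, a hyaluronan receptor also made by lymphatic vessels, was 6.49, 6.39 and 6.44 in sham and 7.18, 9.08 and 6.95 in CBDL. As with Cd163 and Marco, CBDL_165 was the highest array for both, and neither passed after ligation (adjusted p = 0.207 and 0.0709). Folr2, a folate receptor, had a sham mean of 6.85 ± 0.21, a CBDL mean of 6.77 ± 0.63 and a mean of 6.46 ± 0.20 with norUDCA (SD, n = 3 each), with a difference after ligation of -0.09 (95% interval -0.69 to 0.52, adjusted p = 0.858). Timd4, a receptor for dying cells, rose by 0.55 (adjusted p = 0.019) from a dim level, a call that ended without sham_159 or CBDL_164 (adjusted p up to 0.0615). Gpnmb, a glycoprotein of lipid-laden macrophages, was 5.51, 5.68 and 5.53 in sham, 7.71, 8.72 and 6.29 in CBDL and 5.77, 5.65 and 5.94 with norUDCA, a change of 2.0 (adjusted p = 0.0116) after ligation.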
